A study of Mus musculus with 16 samples.

Results

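The 10 genes described here govern or mark the liver's response to fasting. They were chosen by symbol and comprise the transcription factors Ppara and Creb3l3 with the coactivator gene Ppargc1a, the gluconeogenic enzymes Pck1 and G6pc, the metabolic enzymes Pdk4 and Vnn1, and the secreted factors Fgf21, Angptl4 and Igfbp1. Each of the 10 was represented on the array by a row with a single gene symbol, among 19938 genes with such a row. Where a gene had more than 1 row, its brightest row on average was used, which among the 10 concerned Ppargc1a only. RNA was measured in 16 liver samples of the C57BL/6 background on Affymetrix Mouse Gene 1.0 ST arrays, 7 from Pdgf-c transgenic mice and 9 from wildtype mice. The transgene product, platelet-derived growth factor C, stimulates mesenchymal cells, and the study asked whether stromal cells of the liver take part in tumour formation in these mice. The labels name the cell type as stromal cells, whereas the extraction protocol describes total hepatic RNA. They state neither the promoter that drives the transgene nor the age, feeding state or hour of collection of the animals, nor whether each sample came from a separate animal, and every p-value given here therefore refers to the spread among the samples, which may be technical.

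During fasting, falling insulin and rising glucagon and free fatty acids shift the liver from storing fuel to releasing it. The nuclear receptor PPAR alpha, encoded by Ppara, is activated by fatty acids and switches on genes of fatty acid oxidation and ketone body formation, and it also induces Pdk4, Angptl4, Vnn1 and Fgf21. Glucagon acts through cyclic AMP on the coactivator PGC-1 alpha, encoded by Ppargc1a, and on the gluconeogenic enzymes, while the forkhead factor FOXO1 is released from inhibition by insulin and raises Igfbp1, G6pc and Pck1. CREBH, encoded by Creb3l3, is a membrane-bound factor of the endoplasmic reticulum that cooperates with PPAR alpha on Fgf21 and on apolipoprotein genes.

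Promoter sequence was read for 8 of the 10 genes from RefSeq (build GRCm38.p6), as the 250 bases before the annotated start; Creb3l3 has 2 annotated starts there. The 4 promoters shown are pairs that share a short motif but not a result: Igfbp1 and G6pc both hold the forkhead motif TGTTTTG, and Ppargc1a and Pck1 both hold the core of the cyclic AMP response element, TGACG. All 4 windows lie immediately upstream of the gene's first exon and are written 5′ to 3′ on the gene's strand, with motif matches on either strand in capitals. They are Igfbp1 at chr11:7197537-7197786 (+), G6pc at chr11:101367466-101367715 (+), Ppargc1a at chr5:51567726-51567975 (-) and Pck1 at chr2:173152823-173153072 (+).
Igfbp1: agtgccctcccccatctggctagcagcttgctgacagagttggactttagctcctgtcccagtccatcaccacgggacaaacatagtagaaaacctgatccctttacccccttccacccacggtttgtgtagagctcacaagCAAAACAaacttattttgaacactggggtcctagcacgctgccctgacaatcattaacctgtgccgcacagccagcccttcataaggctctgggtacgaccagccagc
G6pc: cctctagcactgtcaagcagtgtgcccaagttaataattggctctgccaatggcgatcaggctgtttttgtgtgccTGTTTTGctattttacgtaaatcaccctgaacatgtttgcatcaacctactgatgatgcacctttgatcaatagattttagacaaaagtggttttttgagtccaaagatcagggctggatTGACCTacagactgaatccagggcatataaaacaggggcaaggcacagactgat
Ppargc1a: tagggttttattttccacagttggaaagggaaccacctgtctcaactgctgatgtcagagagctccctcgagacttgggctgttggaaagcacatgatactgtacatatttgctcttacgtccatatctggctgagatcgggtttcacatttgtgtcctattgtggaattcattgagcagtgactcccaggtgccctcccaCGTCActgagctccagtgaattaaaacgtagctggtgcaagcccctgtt
Pck1: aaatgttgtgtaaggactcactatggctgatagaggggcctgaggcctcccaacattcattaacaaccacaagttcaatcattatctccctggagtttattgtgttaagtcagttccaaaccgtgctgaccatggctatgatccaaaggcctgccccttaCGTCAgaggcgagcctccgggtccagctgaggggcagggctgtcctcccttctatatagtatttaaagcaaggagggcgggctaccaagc

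The forkhead motif lay 102 to 108 bases before the start of Igfbp1 and 168 to 174 bases before that of G6pc, and 5.56% of all 32851 RefSeq promoter windows of this length hold it. The response element core lay 45 to 49 bases before the start of Ppargc1a and 86 to 90 bases before that of Pck1, and 17.8% of all windows hold it. G6pc also held a nuclear receptor core, AGGTCA on the reverse strand, 49 to 54 bases before its start (14% of all windows). TGACG was further found in the windows of Ppara, Fgf21 and 1 of the 2 Creb3l3 starts, and that Creb3l3 window held TGTTTTG and AGGTCA as well. The other Creb3l3 window held the glucocorticoid receptor core TGTTCT (16.1% of all windows) at 2 places. None of these 9 windows held the full response element TGACGTCA (1.55% of all windows), the forkhead motif TGTTTAC (3.17%) or a direct repeat of AGGTCA with 1 base between and up to 1 mismatch in each copy (1.98%), and the window of Pdk4 held none of the 7 motifs searched. TGACG is part of TGACGTCA, and AGGTCA is part of the repeat. A match is a description of these letters and was not tested as a binding site.

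In the transgenic livers 3 of the 10 genes rose (Igfbp1, Pdk4 and Ppargc1a) and 2 fell (Angptl4 and Creb3l3). The other 5, Ppara, Fgf21, Pck1, G6pc and Vnn1, were not called, and all 5 had a lower mean in the transgenic group. All values are log2 intensities as deposited, differences are transgenic minus wildtype with the standard error of the fit, and a call is an adjusted p of at most 0.05 (limma, Benjamini-Hochberg over all 35557 rows). At this threshold 18.9% of all rows were called, 10.6% higher and 8.26% lower. Among the 11557 genes whose brightest row lay above the median level of the table, as all 10 did, 33.8% were called, 16.4% higher and 17.4% lower. The 5 called of 10 are read beside that share, and the difference from it was not tested. Pdk4 lay above the median level (5.25) only through its transgenic arrays, with means of 5.06 in wildtype and 6.01 in transgenic arrays. The median difference of the 10 was -0.19, against -0.03 over all rows. The 2 genes that fell did so without overlap between the groups, where 6.78% of all rows and 13.7% of the genes above the median level did not overlap, 2.38% and 6.11% with transgenic lower. Over the whole table, 3785 rows were higher and 2936 lower as deposited, and 2873 and 4688 after median centring of the arrays; the 5 calls kept their direction and call under both.

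**Figure D1:**
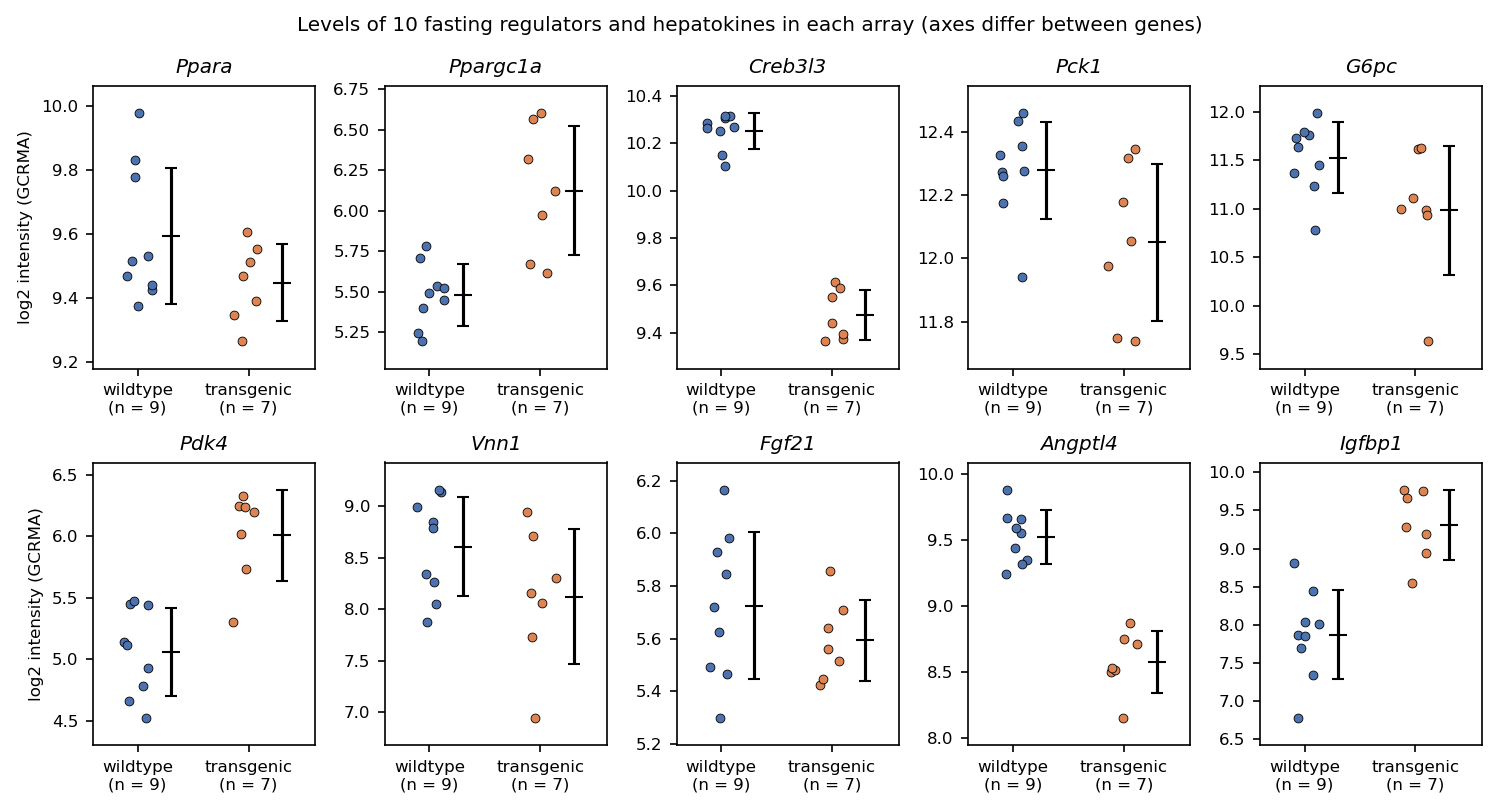
Log2 intensity (vertical axis, a separate range for each gene) of the 10 genes in each of the 9 wildtype and 7 transgenic arrays; points are arrays, and the bar beside them gives the mean and SD of the group. All transgenic arrays lie below all wildtype arrays for Creb3l3 and Angptl4, 6 of 7 lie above all wildtype arrays for Igfbp1 and Pdk4 and 5 of 7 for Ppargc1a, and the groups overlap widely for the other 5 genes.

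Among the secreted factors and enzymes, Igfbp1 showed the largest difference of the 10. It encodes insulin-like growth factor binding protein 1, which hepatocytes secrete when insulin is low and which binds IGF-I in plasma. Its log2 intensity ran from 6.79 through a median of 7.87 to 8.81 in the 9 wildtype arrays and from 8.55 through 9.28 to 9.77 in the 7 transgenic arrays. All but 1 of the transgenic arrays, array 5, lay above every wildtype array, and wildtype array 6 was the only one inside the transgenic range. On average transgenic arrays were 2.70-fold above wildtype for Igfbp1, a difference of 1.43 ± 0.243 (SE, n = 7 and 9, limma adjusted p = 0.000288).

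Pdk4 encodes a pyruvate dehydrogenase kinase, which spares glucose by blocking the entry of pyruvate into the citric acid cycle. Its log2 intensity was 4.52, 5.12 and 5.47 as the lowest, median and highest wildtype value, and 5.30, 6.19 and 6.32 in the transgenic group. Transgenic array 5 was again the one array that did not exceed all wildtype arrays, and 3 wildtype arrays lay inside the transgenic range. The difference was 0.95 ± 0.168 (1.93-fold higher, limma adjusted p = 0.000431). Pdk4 was dim, brighter than 53.8% of all rows on average. Among the other kinases and phosphatases of the same complex, Pdk1 and Pdk2 were not called (-0.07 ± 0.0866 and -0.11 ± 0.0722, limma adjusted p-values 0.672 and 0.32). Pdk3 rose from a mean of 3.61 to 4.08 (0.48 ± 0.128), the phosphatase gene Pdp1 rose (0.35 ± 0.0691) and Pdp2 fell (-0.43 ± 0.137), with limma adjusted p-values of 0.0128, 0.00115 and 0.0359. Pdk3 was brighter than only 25.2% of rows, and its lowest wildtype value, 3.31, lay below the 20th percentile of the table (3.45). Pdp2 was no longer called when any 1 of 8 particular arrays of the 16 was left out (highest limma adjusted p = 0.0748).

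Ppargc1a was the third gene that rose. Its lowest, median and highest log2 intensities were 5.20, 5.49 and 5.79 in wildtype and 5.62, 6.12 and 6.60 in transgenic arrays. The 5 transgenic arrays above all wildtype arrays were arrays 2, 3, 5, 6 and 7, while arrays 1 and 4 fell inside the wildtype range. The difference was 0.64 ± 0.14 (1.56-fold higher, limma adjusted p = 0.00268). This row was dim, brighter than 58.2% of all rows on average. The second Ppargc1a row, dimmer over all arrays, gave 0.62 ± 0.194 (limma adjusted p = 0.0313), also higher. The SD was 0.192 in wildtype and 0.398 in transgenic arrays. The related coactivator gene Ppargc1b differed by 0.03 ± 0.1 (limma adjusted p = 0.89).

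Angptl4 encodes a secreted inhibitor of lipoprotein lipase and is, like Pdk4, a target of PPAR alpha. Its log2 intensity ran from 9.24 through 9.55 to 9.88 in wildtype and from 8.16 through 8.53 to 8.87 in transgenic arrays, without overlap. The difference was -0.94 ± 0.101, 1.92-fold lower in the transgenic group (limma adjusted p = 1.93e-06). Pdk4 and Angptl4 thus moved in opposite directions by sizes of 0.95 and 0.94 on the log2 scale.

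Creb3l3 had the smallest spread of the 10 and the smallest p. In the wildtype arrays it lay between 10.10 and 10.32 (median 10.27, SD 0.0754) and in the transgenic arrays between 9.36 and 9.62 (median 9.44, SD 0.106). The groups were separated by more than the range of either. It was 1.71-fold lower (-0.78 ± 0.0463, limma adjusted p = 1.12e-09).

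Ppara, the receptor gene itself, was not called. Its lowest, median and highest log2 intensities were 9.38, 9.52 and 9.98 in wildtype and 9.26, 9.47 and 9.61 in transgenic arrays, and 6 of the 9 wildtype arrays lay inside the transgenic range. The difference was -0.15 ± 0.0841 with a 95% interval from -0.32 to 0.03 (limma adjusted p = 0.269). Wildtype array 9 was the highest for Ppara, and without it the difference was -0.10 (limma adjusted p = 0.39).

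The gluconeogenic enzymes had lower transgenic means that did not pass the test. Pck1, which forms phosphoenolpyruvate from oxaloacetate, had log2 intensities of 11.94, 12.28 and 12.46 (lowest, median, highest) in wildtype and 11.74, 12.06 and 12.35 in transgenic arrays. It differed by -0.23 ± 0.0913 (limma adjusted p = 0.0979, 95% interval -0.42 to -0.03), and it was called lower without transgenic array 2 (-0.28), transgenic array 6 (-0.27) or wildtype array 4 (-0.27), with limma adjusted p-values of 0.0398, 0.049 and 0.0371. G6pc, the phosphatase that releases glucose in the last step, ran from 10.78 through 11.64 to 11.98 in wildtype and from 9.64 through 11.00 to 11.63 in transgenic arrays. Its difference was -0.54 ± 0.232 (limma adjusted p = 0.124). Transgenic array 5 held the lowest G6pc value by a gap of more than 1 log2 unit, and without it the difference was -0.32 (limma adjusted p = 0.217).

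Fgf21 and Vnn1, both induced by PPAR alpha in fasting, were not called. Fgf21, a hormone that acts on adipose tissue and brain, had log2 intensities of 5.30, 5.72 and 6.16 in wildtype and 5.42, 5.56 and 5.86 in transgenic arrays, so the transgenic range lay inside the wildtype range. It differed by -0.13 ± 0.112 with a 95% interval from -0.37 to 0.11 (limma adjusted p = 0.482). Fgf21 was dim, brighter than 56.8% of all rows on average. For scale, the 5 skeletal muscle markers had wildtype means from 3.84 (Myh4) to 5.94 (Acta1), so a Fgf21 signal above background was not shown. Vnn1 encodes a pantetheinase, which recycles the vitamin part of coenzyme A, and had values of 7.88, 8.79 and 9.16 in wildtype and 6.95, 8.16 and 8.94 in transgenic arrays. Its difference of -0.49 ± 0.255 (limma adjusted p = 0.217) was -0.29 without transgenic array 1, the lowest array (limma adjusted p = 0.408). The family member Vnn3 fell without overlap (-0.45 ± 0.0649, limma adjusted p = 5.47e-05).

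**Figure D2:**
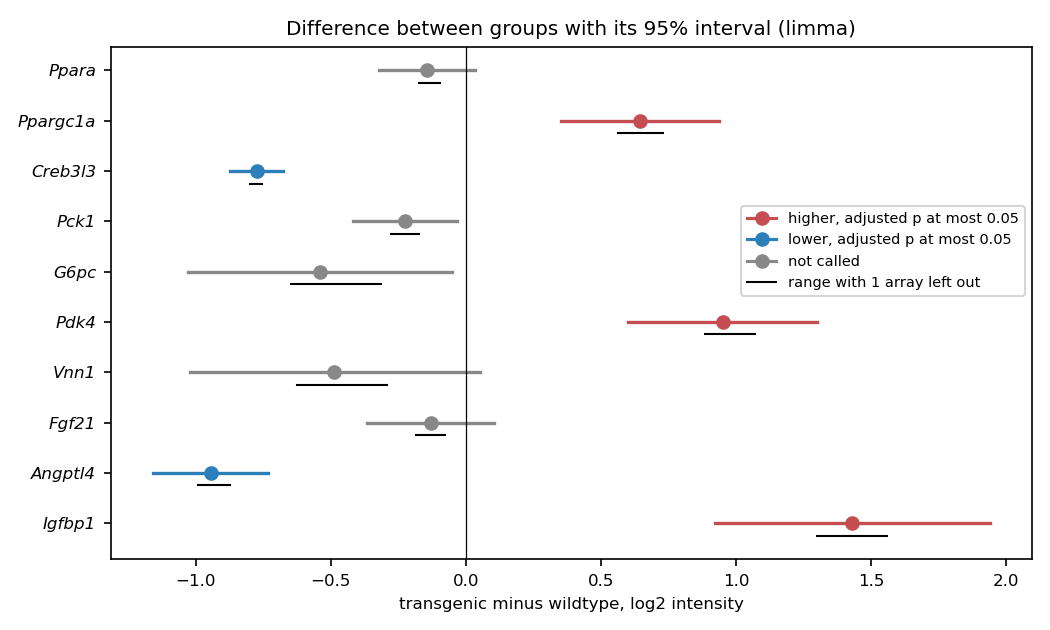
Difference between the groups for each of the 10 genes (horizontal axis, transgenic minus wildtype on the log2 scale); points are the limma estimates, coloured lines their 95% intervals, and black lines the range of the estimate with each of the 16 arrays left out in turn. Igfbp1, Pdk4 and Ppargc1a lie above 0 and Angptl4 and Creb3l3 below 0 over the whole of both ranges, and the black line is longest for G6pc and Vnn1, from -0.65 to -0.32 and from -0.62 to -0.29.

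Around these genes, targets of PPAR alpha were lower in the transgenic livers. Of 26 measured targets other than the 10 genes above, 20 fell and none rose, and 16 fell without overlap. The median difference was -0.37. For all genes above the median level, the shares were 17.4% called lower and 6.11% lower without overlap. The list was chosen with earlier results of these data known, and its difference from those shares was not tested. The fatty acid omega-hydroxylases led, with Cyp4a14 at -2.87 ± 0.412, Cyp4a31 at -2.11 ± 0.218 and Cyp4a10 at -1.82 ± 0.164 (limma adjusted p at most 5.49e-05). These 3 are close paralogs, so their rows may share signal. Cyp4a14 ran from 9.46 through 10.65 to 11.49 in wildtype and from 5.97 through 8.03 to 9.16 in transgenic arrays. Cpt1a, the entry step of mitochondrial oxidation, differed by -0.02 ± 0.0523 (limma adjusted p = 0.871), and Cd36 by 0.07 ± 0.186 (limma adjusted p = 0.85). Angptl4 fell as the 20 called targets did, whereas Pdk4 is a target that rose. Of 11 genes for partners of the receptor, other nuclear receptors, Fgfr4 and Klb, 4 fell and none rose. Of all genes above the median level 17.4% were called lower. Of the genes for the receptor's RXR dimer partners, Rxrb fell (-0.30 ± 0.0611, limma adjusted p = 0.00159) and Rxra differed by 0.01 ± 0.062 (limma adjusted p = 0.945). The other nuclear receptor genes Nr1h3 and Nr1i3 fell (-0.51 ± 0.0642 and -0.46 ± 0.0757), as did the Fgf receptor gene Fgfr4 (-0.34 ± 0.0657), with limma adjusted p-values of 1.3e-05, 0.000237 and 0.000915. Klb, the coreceptor for Fgf21, differed by -0.36 ± 0.134 (limma adjusted p = 0.0756).

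Genes reported as CREBH targets moved in both directions beside the fall of Creb3l3. Of 9 measured, which include Fgf21, 4 fell and 1 rose, with a median of -0.27. The shares among all genes above the median level were 17.4% lower and 16.4% higher. Apoa4, an apolipoprotein, rose without overlap, from 9.30 through 9.55 to 10.03 in wildtype to 10.34 through 10.53 to 10.97 in transgenic arrays (1.01 ± 0.108, limma adjusted p = 2.01e-06). Hamp, the iron hormone hepcidin, fell (-0.54 ± 0.101), as did the pentraxin gene Apcs (-0.33 ± 0.111) and the apolipoprotein gene Apoa5 (-0.32 ± 0.0561), with limma adjusted p-values of 0.00081, 0.0474 and 0.000401. Apcs was no longer called when any 1 of 13 particular arrays of the 16 was left out (highest limma adjusted p = 0.109) and after quantile normalization (0.0829). Angptl8, a regulator of lipoprotein lipase like Angptl4, differed by -0.40 ± 0.333 (limma adjusted p = 0.474).

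Among 20 other measured genes of gluconeogenesis and its regulation, 2 rose and 4 fell, with a median of -0.10; the share of called genes above the median level was 33.8%. Pyruvate carboxylase, Pcx, fell without overlap (-0.31 ± 0.0453), the liver factor gene Hnf4a and the bisphosphatase gene Fbp1 fell (-0.25 ± 0.076 and -0.15 ± 0.0418), and the mitochondrial carboxykinase Pck2 and the aminotransferase Got1 rose (0.32 ± 0.08 and 0.48 ± 0.155), with limma adjusted p-values of 5.91e-05, 0.0244, 0.0138, 0.00861 and 0.036. Foxo1 differed by -0.01 ± 0.059, the glucagon receptor gene Gcgr by -0.11 ± 0.054 and the CREB coactivator gene Crtc2 by 0.07 ± 0.0653 (limma adjusted p-values 0.956, 0.188 and 0.529). The call of Got1 ended when any 1 of 10 particular arrays of the 16 was left out (highest limma adjusted p = 0.0833), and that of Hnf4a without transgenic array 4, 6 or 7 (highest 0.0556). Got1 was also not called after median centring (limma adjusted p = 0.0693), nor Hnf4a after quantile normalization (limma adjusted p = 0.0588).

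On the side of insulin, 1 of 10 signalling genes rose and none fell. That gene was Grb10, which encodes an adaptor that restrains the insulin and IGF receptors. It ran from 4.88 to 5.37 in wildtype and from 5.79 to 6.14 in transgenic arrays (0.91 ± 0.0797, limma adjusted p = 1.54e-07). Insr and Irs2 had differences of -0.07 ± 0.0943 and 0.13 ± 0.104 and were not called (limma adjusted p-values 0.683 and 0.447). Of 14 genes that insulin and feeding induce, 7 rose and 2 fell, with a median of 0.26. With single arrays left out, 5 to 8 were higher and 1 to 2 lower. Of all genes above the median level, 16.4% were called higher and 17.4% lower. The fatty acid elongase gene Elovl6 rose 2.09-fold (1.07 ± 0.141), the acetyl-CoA carboxylase gene Acaca 1.83-fold (0.87 ± 0.0837) and the fatty acid synthase gene Fasn 1.44-fold (0.53 ± 0.105), with limma adjusted p-values of 2.23e-05, 5.58e-07 and 0.00132. Malic enzyme, Me1, and Srebf1, the gene of the lipogenic factor SREBP-1, fell (-0.41 ± 0.111 and -0.28 ± 0.0927, limma adjusted p-values 0.0131 and 0.0386). The call of Srebf1 ended when any 1 of 9 particular arrays of the 16 was left out (highest limma adjusted p = 0.0815). Among the genes that rose, the call of Mlxipl ended for 12 particular arrays (highest limma adjusted p = 0.0987). Mlxipl was also not called after median centring (limma adjusted p = 0.111). Pnpla3 was not called without transgenic array 4 or 5 (highest limma adjusted p = 0.0562).

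Among 12 other measured genes of secreted proteins, listed here as hepatokines, 1 rose and 3 fell. Of all genes above the median level 33.8% were called in either direction. The list does not mean that a gene is made by the liver alone. Serpina12, which encodes vaspin, rose without overlap from 6.68 through 7.48 to 8.06 in wildtype to 8.46 through 8.84 to 8.91 in transgenic arrays (1.41 ± 0.165, 2.66-fold, limma adjusted p = 5.78e-06). Inhbe, an activin subunit gene, and Fetub, which encodes fetuin-B, fell (-0.56 ± 0.143 and -0.32 ± 0.0448, limma adjusted p-values 0.00877 and 4.74e-05). In the IGF system of the liver, Igfbp2 fell (-0.28 ± 0.076, limma adjusted p = 0.015) where Igfbp1 rose, and Igf1 and Igfbp4 were not called at 0.00449 ± 0.0383 and -0.00658 ± 0.0389 (limma adjusted p-values 0.956 and 0.935).

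**Figure D3:**
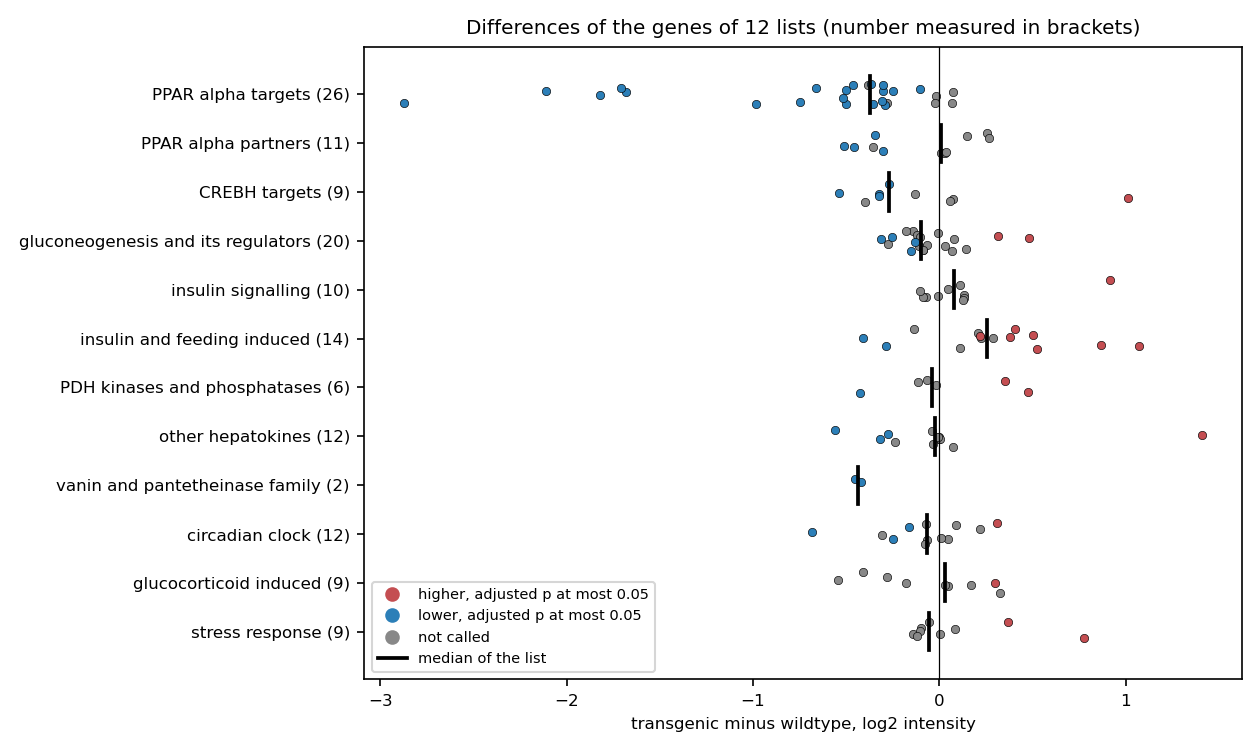
Difference of each measured gene (horizontal axis, transgenic minus wildtype on the log2 scale) in 12 gene lists, with red points for genes called higher, blue for lower and grey for those not called, and a black bar at the list's median. The PPAR alpha targets lie mostly below 0 with a median of -0.37, the insulin and feeding induced genes mostly above 0 with a median of 0.26, both vanin family genes lie below 0, and the remaining medians lie between -0.27 and 0.08.

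Genes that report other influences on fasting genes were read beside these results. Of 12 clock genes, which follow the hour of day and feeding, 1 rose (Per3, 0.31 ± 0.101) and 3 fell (Ciart, -0.68 ± 0.0939, Arntl, -0.25 ± 0.0764, and Hlf, -0.16 ± 0.0552), and Dbp, Nr1d1 and Per1 were not called. The share called among all genes above the median level was 33.8%. Of 9 glucocorticoid-induced genes only Sgk1 rose (0.30 ± 0.0872) and none fell, and of 9 stress response genes Nupr1 and Atf3 rose (0.77 ± 0.0971 and 0.37 ± 0.114). Limma adjusted p-values were 0.0385, 3.49e-05, 0.0285 and 0.046 for the 4 clock genes and 0.02, 1.25e-05 and 0.03 for the other 3. Leaving out 1 array ended the call of Per3 and of Hlf for 10 of the 16 arrays each, that of Arntl for transgenic arrays 2, 3 and 6, and that of Atf3 for 5 arrays. Sgk1, Per3 and Atf3 were not called under either quantile normalization or median centring, with limma adjusted p-values of 0.0718 and 0.0594 for Sgk1. Across the 3 lists 4 genes were higher and 3 lower as deposited, against 1 and 6 with arrays centred on their medians. The part of these genes in the results above was not tested.

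Cell markers moved with the groups. As a background, 33.8% of all genes above the median level and 18.9% of all rows were called. Many of the cholangiocyte, adipocyte and skeletal muscle markers lay below the median level, so the first share does not apply to them. All 14 stellate cell and fibroblast markers rose, and their mean log2 intensity per array was 6.46 to 6.99 in wildtype and 8.45 to 8.76 in transgenic arrays. Of 10 hepatocyte markers 6 fell and 1 rose, with a mean of 12.066 to 12.136 against 11.900 to 12.004. The one that rose, Apoa1, was not called after median centring (limma adjusted p = 0.596) or when any 1 of 6 particular arrays was left out, and Cebpa, among those that fell, was not called after quantile normalization (limma adjusted p = 0.0829). Of 10 endothelial markers 4 rose and 3 fell (6.55 to 6.91 against 6.63 to 6.95), with differences from -2.27 (Clec4g) to 3.14 (Cd34). Of 10 Kupffer cell and macrophage markers 4 rose and 5 fell (6.93 to 7.79 against 6.35 to 7.17). These means hide large opposite differences. Clec4f, Cd5l, Timd4, Vsig4 and Marco fell (-2.83 to -0.67), and Ccr2, Lyz2, Cd68 and Csf1r rose (0.38 to 2.0). Of 8 adipocyte markers Fabp4 rose and Lipe fell (5.13 to 5.33 against 5.24 to 5.41), while Adipoq, which defines adipocytes, averaged 3.15 and 3.11, below the 20th percentile of the table (3.45). The call of Lipe ended when any 1 of 9 particular arrays of the 16 was left out (highest limma adjusted p = 0.0929). None of 5 cholangiocyte markers (4.76 to 4.90 against 4.72 to 4.95) and none of 5 skeletal muscle markers (5.0441 to 5.2627 against 5.0004 to 5.1600) was called. The part of these cells in the results above was not tested, and in whole liver RNA fewer cells of a type and less RNA per cell cannot be told apart.

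Within a group the 10 genes did not vary as 1 block. Pearson's r was computed for all 45 pairs in the 9 wildtype and in the 7 transgenic arrays. It ran from -0.48 to 0.75 (median 0.15) in wildtype and from -0.84 to 0.87 (median 0.08) in transgenic arrays, with 31 and 24 of 45 pairs positive. An unadjusted exact permutation p under 0.05 was reached by 3 and 5 pairs, and none of the 90 passed after Benjamini-Hochberg adjustment. In wildtype arrays the closest pair was Ppargc1a with Pck1 (r = 0.75, exact permutation p = 0.0168, adjusted 0.462; Spearman's rho 0.58, exact permutation p = 0.108, adjusted 0.758), and r was 0.38 without the 2 arrays farthest from the median of Ppargc1a. In transgenic arrays it was Pdk4 with G6pc (r = 0.87, exact permutation p = 0.0244, adjusted 0.462; rho 0.71, exact permutation p = 0.0881, adjusted 0.758). That relation rested on the 2 arrays farthest from the Pdk4 median, without which r was 0.21. The most negative pair was Fgf21 with Pck1 in transgenic arrays (r = -0.84, exact permutation p = 0.0208, adjusted 0.462; rho -0.79, exact permutation p = 0.048, adjusted 0.72; r = -0.52 without 2 arrays).

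**Figure D4:**
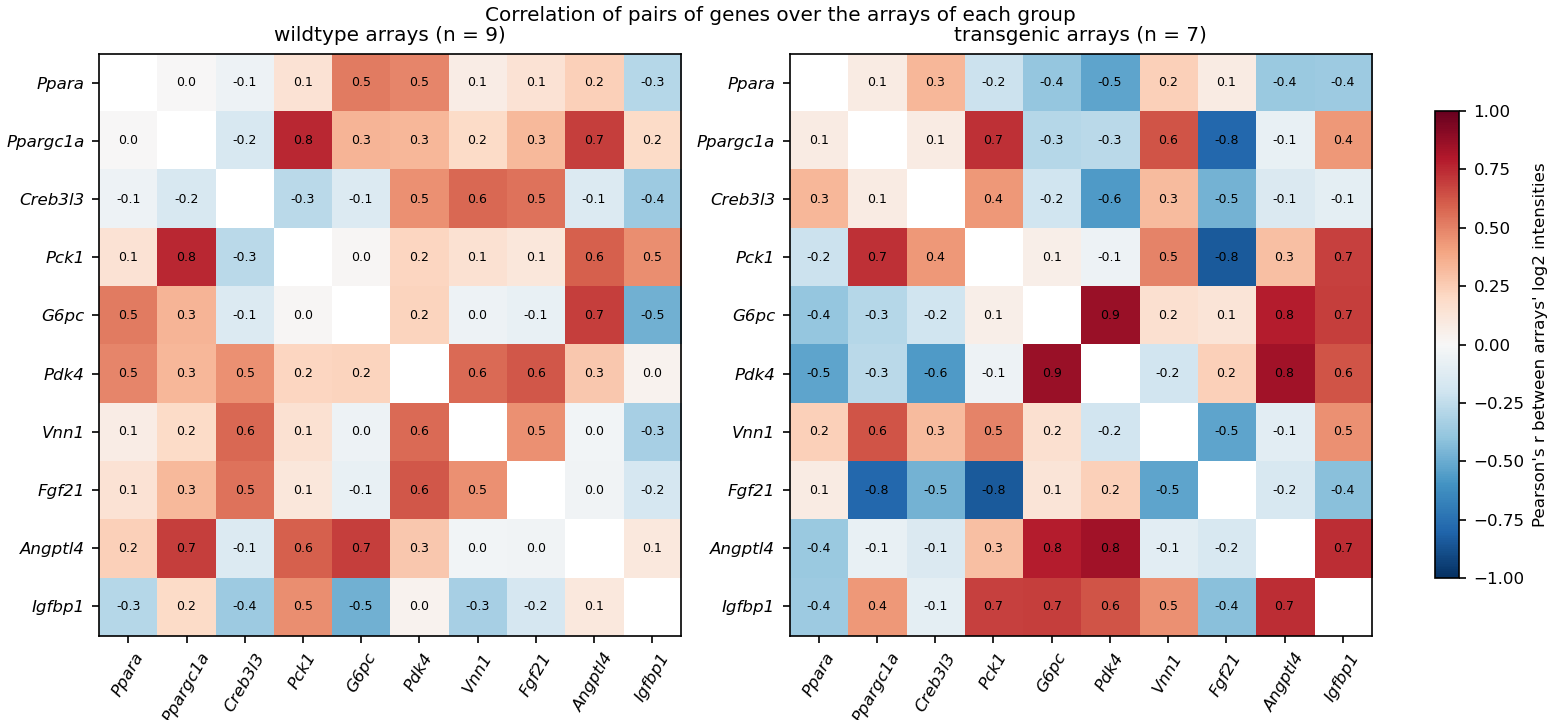
Pearson's r for each pair of the 10 genes over the 9 wildtype arrays (left) and the 7 transgenic arrays (right), from -1 in blue to 1 in red. Pdk4 with G6pc is at 0.87 among transgenic and 0.22 among wildtype arrays, and none of the 90 values passed after adjustment.

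The spread within groups differed among the genes. In wildtype arrays the SD on the log2 scale was smallest for Creb3l3 (0.0754) and largest for Igfbp1 (0.585). In transgenic arrays it was again smallest for Creb3l3 (0.106), and largest for G6pc (0.664) and Vnn1 (0.657). Transgenic array 5 was the lowest of its group for Pdk4, Angptl4, Igfbp1 and G6pc, and wildtype array 9 was the highest of its group for Ppara, Fgf21, Pdk4, G6pc and Vnn1 and the lowest for Igfbp1. Over the whole table the second principal component held 11.5% of the variance, with wildtype array 9 at one end and transgenic array 1 at the other. Without those 2 arrays the same 3 genes were called higher and the same 2 lower.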

How the data were processed

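Hepatic RNA of 7 Pdgf-c transgenic and 9 wildtype samples was hybridised to 1-colour arrays. The deposited table holds log2 intensities that the authors made with GCRMA, per the submitters' processing notes, which give no version. The log base and centring are not stated by the authors and were read from the values (0.71 to 14.7, column medians 5.20 to 5.36). GCRMA subtracts modelled background, which bears most on the values and differences of dim genes. The platform annotation gave 1 symbol to 21789 of 35557 rows, several to 1621 and listed no entry for 12147. No row was named from several symbols, and the brightest row stood for a gene. The list genes Acaca, Ciart, Insr, Me1 and Clec4g had 2 such rows each, and values of their dimmer rows are not given.

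Groups were compared with limma 3.58.1 (R 4.3.3, lmFit, eBayes with trend) and Benjamini-Hochberg adjustment over all rows. On simulated data with 50 rows changed at each fold, the fit recovered 18% of 1.2-fold, 68% of 1.5-fold and 92% of 2-fold changes. Far fewer rows were changed there than were called here, so its adjusted threshold was stricter. A gene not called may still differ by such small folds. Correlations used exact permutations (scipy 1.17.1). Alternatives were quantile normalization, median centring, a floor, other eBayes settings, array weights, subsets of rows, a replicate block, and each array left out. Depth does not apply to arrays; the 16 samples limit precision. The lowest correlation between arrays was 0.976, and no 2 columns were identical.

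The 10 genes and the lists were chosen with earlier results of these data known. Named from each list were the called genes, up to 3 a direction by size; other genes named were chosen after their values were seen. Same-numbered arrays did not deviate together, so the numbers were not used as pairs.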

Additional observations from a re-analysis of the deposited data

Results flagged for a closer look

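In 94 groups of arrays of 47 named genes, 5 held an array far from the others of its group by Dixon's criterion, where chance gives about 5% of groups. Among the 20 groups of the 10 fasting genes there was 1. G6pc was 9.64 in transgenic array 5, the lowest of its group, against 10.93 in the next array. Got1 was 11.62 in wildtype array 3, the highest of its group, against 11.12 in the next. Atf3 was 6.17 in the same array, against 5.64. Inhbe was 8.66 in transgenic array 4, against 8.06, and Arntl was 5.91 in wildtype array 2, against 5.51.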

How the results depend on the processing

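Igfbp1, Pdk4, Ppargc1a, Angptl4 and Creb3l3 kept their call and direction with each of the 16 arrays left out in turn and under the 12 other alternatives run, with differences of 1.25 to 1.56, 0.885 to 1.07, 0.562 to 0.733, -0.994 to -0.873 and -0.826 to -0.746. No alternative reversed any of the 10 genes. Pck1 passed under quantile normalization (-0.26, limma adjusted p = 0.0481) and with the replicate block (-0.22, limma adjusted p = 0.0227), and over single arrays left out it ran from -0.276 to -0.175; the cause was not tested. With the replicate block over the 14 arrays of shared number, 3488 rows were higher and 2234 lower, against 3776 and 2696 in the same arrays without it; same-numbered arrays correlated by -0.0186 to 0.0859. Median centring gave 4688 lower rows. Of the clock, glucocorticoid and stress genes, 1 was higher under quantile normalization and 1 higher and 6 lower under median centring, and leaving out single arrays gave 2 to 4 higher and 1 to 3 lower; the cause was not tested. Leaving out both wildtype array 9 and transgenic array 1, and the 14 arrays without the block, were alternatives chosen after seeing the data. The table gives no signal over background for single rows, so none of the 10 genes could be checked against it.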

Other observations

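The genes most like each called gene were ranked by Pearson's r of the deviations from the group means over all 16 arrays, among genes above the median level, as a description with no test. For Creb3l3 they were Rpn1 (0.859), Alg3 (0.814) and Jmjd8 (0.799). For Angptl4 they were Ago2 (0.841), Kpnb1 (0.828) and the clock gene Clock (0.809). Plekha1 (0.867), Arfgef2 (0.827) and Ints8 (0.817) were closest to Ppargc1a. Pdk4 was closest to Nr6a1 (0.814), Mup21 (0.77) and Arhgef7 (0.758), and Igfbp1 to Adamtsl4 (0.795), Ttc39a (0.742) and Sema4c (0.739). All arrays share 1 normalization.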
